A study of Homo sapiens with 14 samples.

Results

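Transcripts of 41 lysosome and autophagy genes were followed in the human prostate cancer line LNCaP, which grows in response to androgen, on Affymetrix arrays. The members were taken from a list of gene symbols that covers lysosomal membrane proteins, proteases, other hydrolases, the proton pump, the MiT transcription factors and the autophagy machinery, and each gene was read by the probe set annotated to that gene alone that had the highest mean. All 41 listed genes were found among the 19775 genes measured. The 14 arrays formed 7 groups of 2. In a drug experiment without transfection, cells were kept for 24 h in 0.1% DMSO alone as the solvent control, in 5 uM TSA, which is trichostatin A and blocks histone deacetylases, or in 10 uM Roscovitine, which blocks cyclin-dependent kinases. In a transfection experiment of 60 h, the groups were a control siRNA, written si-Control, the siRNA si-EZH2, and 2 groups that carried si-EZH2 together with a plasmid whose EZH2 transcript resists it. That plasmid encoded the wild-type protein in the wild-type add-back and the mutant T350A in the T350A add-back. The labels name no group with an empty plasmid. Against si-EZH2, a plasmid and the EZH2 that it encodes therefore cannot be told apart. EZH2 is the catalytic subunit of the Polycomb repressive complex PRC2, and the study concerned residue T350 of EZH2. Drug treatment and transfection were separate experiments of different length, and differences in baseline between them cannot be told apart from transfection or time.

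Lysosomes are acidic organelles in which hydrolases break down material that arrives by endocytosis or by autophagy. In autophagy, the ULK kinase complex and the BECN1 lipid kinase complex start a membrane that ATG conjugation enzymes coat with ATG8 proteins (the LC3 and GABARAP families), receptors load it with cargo, and it fuses with the lysosome. TFEB, TFE3 and MITF are related transcription factors that bind E-boxes in the promoters of many of these genes, and the activity of TFEB and TFE3 is controlled largely by their movement between cytoplasm and nucleus, which an mRNA level does not show.

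Promoter windows from RefSeq (GRCh38.p14, 250 bases before to 50 after each start) were held for 32 of the 41 members and were searched for the E-box. Those of 5 members are shown, with WIPI1 among them as a window without it. Capitals mark the E-box CACGTG, and the longer capital run TCACGTGA marks the core of the CLEAR element, the form of the E-box named for coordinated lysosomal expression and regulation. Both motifs read the same on either strand, and every CLEAR core also counts as an E-box. The windows are MCOLN1 at chr19:7522374-7522673 (plus strand), LAMP1 at chr13:113296989-113297288 (plus strand), NEU1 at chr6:31862772-31863071 (minus strand), GAA at chr17:80101331-80101630 (plus strand) and WIPI1 at chr17:68457447-68457746 (minus strand), each written 5′ to 3′ on the strand of the gene.
MCOLN1: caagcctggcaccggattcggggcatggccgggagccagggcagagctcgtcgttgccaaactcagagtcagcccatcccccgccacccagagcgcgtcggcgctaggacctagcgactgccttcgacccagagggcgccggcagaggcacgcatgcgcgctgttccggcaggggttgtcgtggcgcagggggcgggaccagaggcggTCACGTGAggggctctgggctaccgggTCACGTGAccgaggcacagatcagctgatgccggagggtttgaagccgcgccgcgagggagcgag
LAMP1: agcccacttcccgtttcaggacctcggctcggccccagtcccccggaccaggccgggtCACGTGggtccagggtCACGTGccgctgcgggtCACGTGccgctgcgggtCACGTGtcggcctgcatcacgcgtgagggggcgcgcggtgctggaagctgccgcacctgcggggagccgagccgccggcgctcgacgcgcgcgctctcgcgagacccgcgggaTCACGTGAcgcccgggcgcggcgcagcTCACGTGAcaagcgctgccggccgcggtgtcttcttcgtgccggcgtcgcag
NEU1: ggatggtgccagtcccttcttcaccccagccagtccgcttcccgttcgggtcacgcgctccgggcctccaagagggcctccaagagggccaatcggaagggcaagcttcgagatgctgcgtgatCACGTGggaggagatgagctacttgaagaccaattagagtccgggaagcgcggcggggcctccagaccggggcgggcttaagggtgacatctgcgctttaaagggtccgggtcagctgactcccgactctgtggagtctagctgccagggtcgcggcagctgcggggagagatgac
GAA: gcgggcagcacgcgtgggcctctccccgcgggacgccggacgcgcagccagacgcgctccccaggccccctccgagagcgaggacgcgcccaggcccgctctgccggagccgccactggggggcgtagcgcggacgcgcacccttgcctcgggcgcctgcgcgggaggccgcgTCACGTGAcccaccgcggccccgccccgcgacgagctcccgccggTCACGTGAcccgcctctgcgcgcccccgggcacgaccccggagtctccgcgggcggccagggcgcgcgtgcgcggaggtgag
WIPI1: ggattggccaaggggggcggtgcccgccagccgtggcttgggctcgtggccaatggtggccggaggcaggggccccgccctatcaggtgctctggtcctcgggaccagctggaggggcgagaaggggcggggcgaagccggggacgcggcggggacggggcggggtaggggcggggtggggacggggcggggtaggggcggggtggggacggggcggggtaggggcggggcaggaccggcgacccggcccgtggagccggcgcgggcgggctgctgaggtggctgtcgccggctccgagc
The E-box stood in 9 of 32 member windows (28.1%), against 8.90% of the 15384 windows of tested genes. The CLEAR core stood in 6 of 32 (18.8%), against 1.45%, and the related letters CATGTG, searched on both strands, in 4 of 32 (12.5%), against 8.41%. The CLEAR element is named for lysosomal genes and the members were listed as such genes, so its higher share is not an independent finding. LAMP1 held 6 E-boxes, 2 of them CLEAR cores, MCOLN1 and GAA held 2 CLEAR cores each, NEU1 held 1 E-box, and the WIPI1 window held none of the 3 motifs. A match is a run of letters in a window, not a site shown to be bound.

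The array medians lay between 107 and 117, and no member had an array under a signal of 50. EZH2 was read at 1161 and 1221 with si-Control and at 392 and 393 with si-EZH2, and at 839 and 822 in the wild-type and 806 and 826 in the T350A add-back. It thus fell by 1.56 on the log2 scale with si-EZH2 (limma adjusted p = 9.6e-05), and rose in both add-backs without reaching the si-Control arrays. Replicate 2 differed from replicate 1 in a like way in the Roscovitine and T350A groups: these differences correlated at 0.77 over 9887 genes. Any other 2 groups gave -0.33 to 0.40. DMSO gave 0.40 with Roscovitine and 0.33 with T350A, and si-EZH2 gave -0.33 and -0.31. A correlation does not show which array of a group deviates. The second Roscovitine and T350A arrays are called the deviating arrays here. The median member was 0.13 higher (log2) in replicate 2 than in replicate 1 in the Roscovitine and in the T350A group. Results that rest on these 2 groups are given with and without the deviating pair. Leaving that pair out does not remove a like difference between the DMSO or the si-EZH2 arrays. All 8 measured markers of luminal prostate cells were above a mean signal of 50, with sums of 34160 to 38842 in the DMSO, Roscovitine, si-Control and si-EZH2 arrays, 31529 and 36066 in the T350A add-back, 25816 and 31881 in the wild-type add-back, and 14947 and 14263 with TSA. Leukocyte markers summed to 700.05 to 847 on every array, with means from 1.27 (CD14) to 275 (MS4A1), and 5 of 7 were above 50. Fibroblast and endothelial markers summed to 2348 to 3320, with means from 3.19 (PDGFRB) to 1635 (PECAM1), and 5 of 8 were above 50. A mean above 50 thus did not set the luminal list apart. The labels do not say whether replicates were separate cultures, so p-values measure only the spread between these samples, and their number limits the precision. Signals of different probe sets are not compared with each other.

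With TSA, 23 of the 41 members rose against DMSO (56.1%), 5 fell (12.2%) and 13 were not called. Over all genes 20.6% were called higher and 21.4% lower. By mean signal 37 members lay above the median gene. In a fit of the 9887 genes above the median signal alone, 2997 were called higher and 3932 lower, with a median of -0.07. The members' median difference was 0.34 on the log2 scale of signal plus 16, against 0.008 over all genes. The TSA and DMSO arrays did not overlap for 37 members (90.2%) and for 70.7% of all genes. A call means a limma adjusted p under 0.05 over all 19775 genes, and only called genes are said to have risen or fallen. Markers of other kinds moved alongside. Of the 8 luminal markers ACP3, FOLH1, HOXB13, KLK2, KLK3 and TMPRSS2 fell, with KLK3 (prostate-specific antigen) at a mean of 10266 with DMSO and 317 with TSA, while the keratin KRT8 rose from 2467 to 4713 and KRT18, at 7253 and 6583, was not called. COL1A1 rose from 398 to 1142, whereas COL3A1, VWF and PTPRC fell. The list of basal and androgen-independent prostate markers (5 measured) summed to 1653 and 1598 with TSA against 780 and 719.58 with DMSO, mostly VIM. The part of these markers in the members' differences was not tested. In RNA from whole cultures, a change in the mix of cells and a change in RNA per cell cannot be told apart.

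The 4 largest rises were those of WIPI1, NEU1, OPTN and MCOLN1. WIPI1, which binds the lipid made by the BECN1 complex at forming autophagosomes, was at 101 and 107 with DMSO and at 1305 and 1279 with TSA. All TSA signals lay far above all DMSO signals, a difference of 3.45 ± 0.27 (log2, SE; 95% interval 2.84 to 4.06; adjusted p = 5.5e-06), or 12.4 times the mean signal. NEU1, the lysosomal sialidase, went from 702 and 739 to 5718 and 5244, a difference of 2.90 ± 0.12 (adjusted p = 1.3e-07). OPTN, a receptor that brings ubiquitinated cargo and damaged mitochondria to ATG8 proteins, went from 213 and 220 to 792 and 875, a difference of 1.87 ± 0.22. Its second probe set went from 99.0 and 104 to 1080 and 991, a larger difference of 3.16. MCOLN1, the cation channel that releases calcium from lysosomes, went from 355 and 355 to 1379 and 1278, a difference of 1.85 ± 0.13. Roscovitine arrays stayed near DMSO for all 4 genes. In the plot of signals on each array these genes stand out with TSA, while WIPI1, NEU1 and OPTN also lie higher in the wild-type add-back and MCOLN1 does not.

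**Figure D1:**
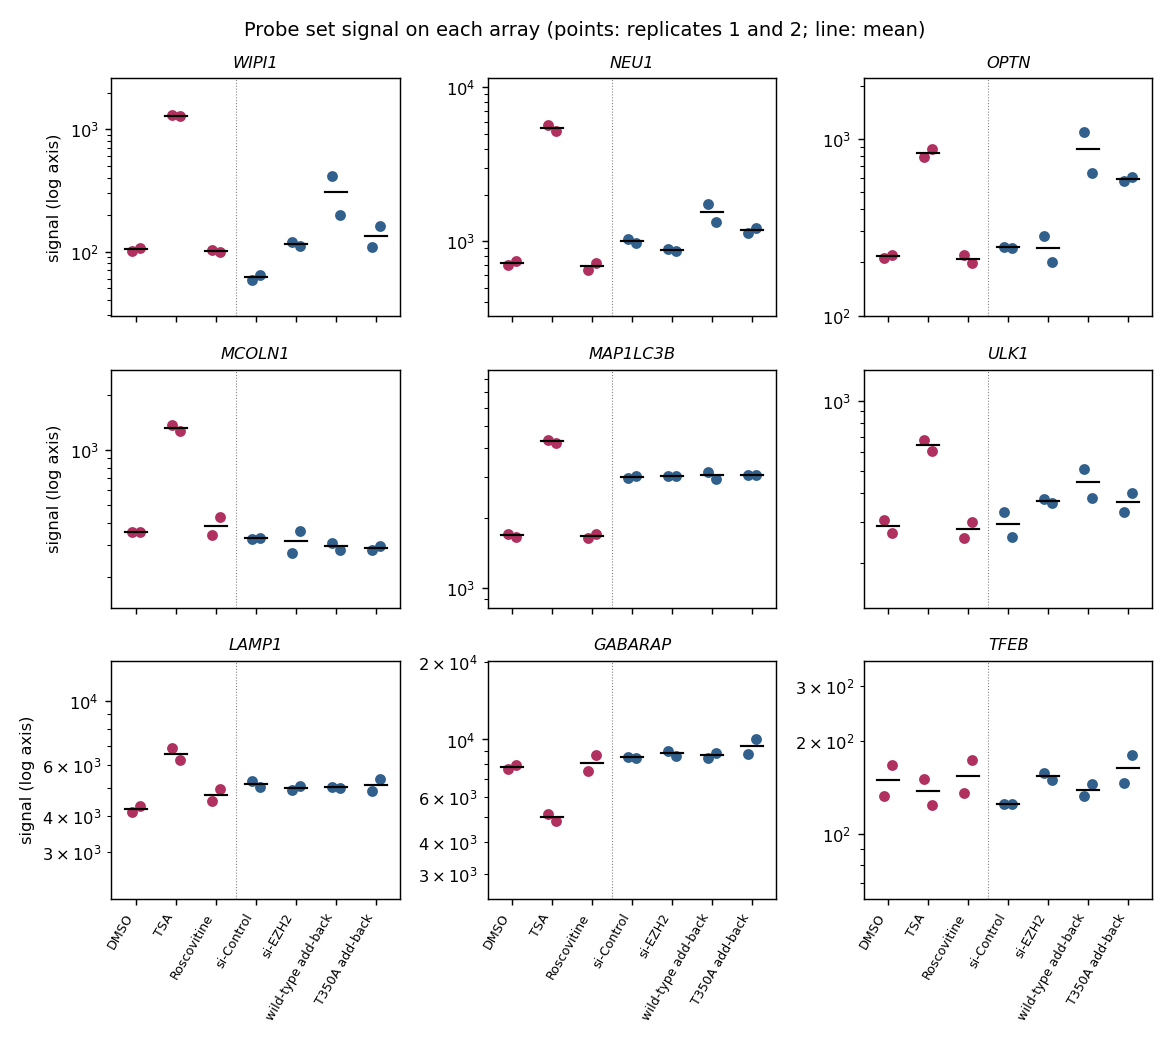
Probe set signal (log axis) of 9 members on each of the 14 arrays, by group, with points for replicates 1 and 2, a line for the mean and a dotted line between the drug and transfection experiments. WIPI1, NEU1, OPTN and MCOLN1 lie highest or near their highest with TSA (WIPI1 at 1305 and 1279 against 101 and 107 with DMSO), GABARAP lies lowest with TSA, and the TFEB arrays of TSA and DMSO overlap.

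Among the 3 lysosomal membrane proteins, LAMP1 and MCOLN1 rose with TSA and LAMP2 did not pass the test. LAMP1, a heavily glycosylated protein that lines the lysosomal membrane, was at 4226 ± 131 (SD, n = 2) with DMSO and 6579 ± 442 with TSA, a difference of 0.64 ± 0.08. LAMP2, its relative that also acts in chaperone-mediated autophagy, differed by 0.10 ± 0.06 (adjusted p = 0.27) by the probe set that stands for the gene. A pair of other LAMP2 probe sets differed by 0.51 and 0.38, and the dimmest, at a mean of 240.1, by -0.08.

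Of the 9 proteases, 5 rose, 2 fell and 2 were not called, with a median of 0.34. CTSA, a carboxypeptidase that also holds NEU1 in an active complex, rose from a mean of 597 to 1217, a difference of 1.01 ± 0.08. CTSD, the main aspartic protease, rose by 0.83 ± 0.07, CTSF by 0.63 ± 0.10, CTSB by 0.40 ± 0.08 and TPP1, an aminopeptidase that removes tripeptides, by 0.34 ± 0.08. CTSH, an aminopeptidase, fell from 4101 and 4191 to 3078 and 2895, a difference of -0.47 ± 0.10. CTSZ, a carboxypeptidase, fell from 207 and 208 to 141 and 151, a difference of -0.46 ± 0.07. The proteases thus moved in both directions. CTSL differed by -0.24 (adjusted p = 0.063) and CTSS, a protease best known from antigen-presenting cells, by -0.03.

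Of the 7 glycosidases and lipid enzymes, NEU1, GLA and PSAP rose and 4 were not called, with a median of 0.13. GLA, alpha-galactosidase A, rose from 861 ± 4.59 to 1628 ± 18.5, a difference of 0.91 ± 0.09. PSAP, the precursor of the saposins that help enzymes reach their lipids, rose by 0.38 ± 0.08. GAA, which breaks down glycogen, differed by -0.14, GUSB by 0.13, ASAH1, the acid ceramidase, by 0.12, and HEXA, a subunit of beta-hexosaminidase, by -0.28 with a wide 95% interval of -0.81 to 0.26. GAA, with 2 CLEAR cores in its window, is thus among the members not called.

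Of the 4 proton pump members, 3 rose and none fell, with a median of 0.52. ATP6V0D1, of the membrane sector, rose by 0.92 ± 0.10, and ATP6V1H and ATP6V1A, of the sector that splits ATP, rose by 0.76 ± 0.06 and 0.28 ± 0.07. The accessory subunit ATP6AP1 differed by 0.04. Among 11 further pump genes that are not members, 9 rose and none fell, with a median of 0.70. Over all genes the shares were 20.6% higher and 21.4% lower. ATP6V1C1 and ATP6V0A1 were at 2.40 times their DMSO signal each, and ATP6V0E1 and ATP6V1G1 were not called.

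Of the 3 MiT factors, MITF rose. MITF was at 309 and 297 with DMSO and at 574 and 649 with TSA, a difference of 0.97 ± 0.10 (adjusted p = 3.4e-05). TFEB differed by -0.11 (95% interval -0.45 to 0.23) and TFE3 by -0.17 (-0.47 to 0.13). Neither passed the test, and the TFEB arrays of the groups overlapped.

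All 5 initiation genes were called, 3 up and 2 down. ULK1, the kinase that starts autophagosome formation, rose from 288 ± 24.8 to 644 ± 48.8, a difference of 1.12 ± 0.16. Its relative ULK2 fell from 514 and 517 to 325 and 321, a difference of -0.65 ± 0.09. BECN1, the scaffold of the lipid kinase complex, was at 2146 and 2083 with DMSO and fell to 1586 and 1511 with TSA, a difference of -0.45 ± 0.06. UVRAG, a partner of BECN1, rose by 0.67 ± 0.10. The kinases ULK1 and ULK2 thus moved in opposite directions, and so did BECN1 and UVRAG.

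Of the 5 conjugation genes, 4 rose and ATG5 was not called (0.01 ± 0.08). ATG12, the ubiquitin-like protein that is joined to ATG5, rose by 0.79 ± 0.07, ATG7, the activating enzyme, by 0.45 ± 0.10 and ATG3, which passes ATG8 proteins to lipid, by 0.29 ± 0.08. ATG16L1, which places the ATG12 and ATG5 conjugate on the membrane, rose by 0.62 ± 0.22 with an adjusted p of 0.0495, and this call was made in only 5 of 14 fits that left out 1 array. It was also lost with the replicate number as a block (adjusted p = 0.056). The call on ATG3 was lost when any single DMSO or TSA array was left out. The means of all probe sets of a gene gave no call on ATG16L1, ATG3 or ATG7.

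Of the 5 ATG8 proteins and receptors, MAP1LC3B and OPTN rose, GABARAP fell, and 2 were not called. MAP1LC3B, the LC3 protein used as a marker of autophagosomes, rose from 1686 ± 34.8 to 4295 ± 100.4, a difference of 1.34 ± 0.06 (adjusted p = 2.2e-07). GABARAP fell from 7655 and 7957 to 5157 and 4822, a difference of -0.64 ± 0.09 (adjusted p = 0.00032). Its relative GABARAPL1 differed by 0.33 ± 0.15 and the receptor NBR1 by -0.18 ± 0.08, neither of them called. Members of the ATG8 family thus moved in both directions.

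**Figure D2:**
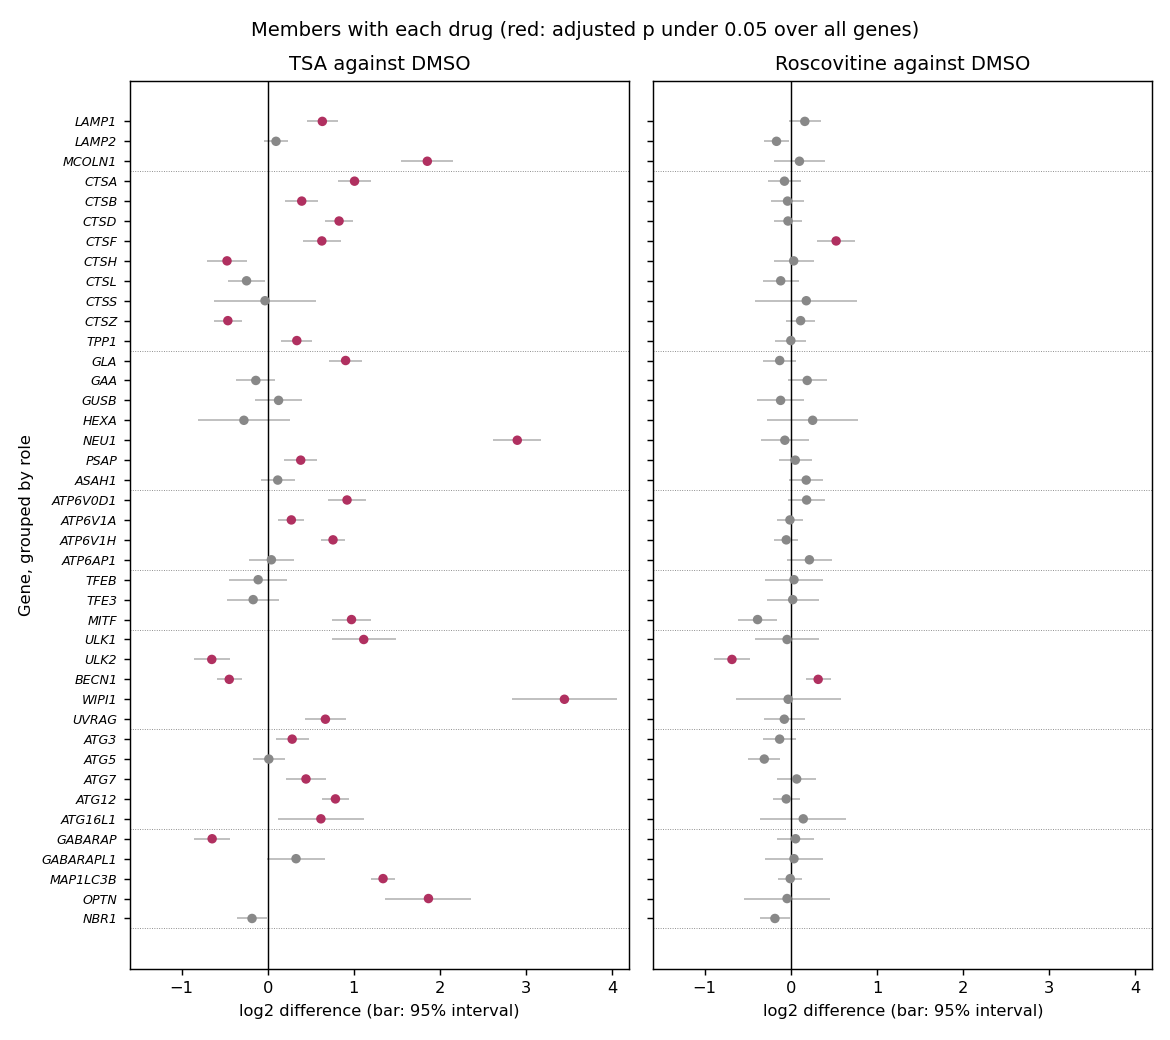
Log2 difference of each of the 41 members from DMSO, with TSA (left) and with Roscovitine (right), as points with 95% intervals (horizontal axis, log2 units) and genes ordered by role; red points are called at an adjusted p under 0.05 over all genes. With TSA 23 members rose and 5 fell, and with Roscovitine 2 rose and 1 fell.

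Of the 28 calls with TSA, 22 were made in every alternative setting and every fit without 1 array. Besides ATG16L1, ATG3 and ATG7, the exceptions were TPP1, lost without TSA replicate 1, and CTSZ and BECN1, lost with the mean of all probe sets. Other probe sets with a mean signal of at least 50 existed for 16 of the 28 called genes, and 25 of those 27 probe sets differed in the same direction as the one that stood for the gene. Of the 18 members that rose and had a promoter window, 8 held an E-box (44.4%) and 5 a CLEAR core, while none of the 5 members that fell and 1 of the 9 not called (GAA) held either. The 8 were LAMP1, CTSA, CTSD, CTSF, NEU1, MCOLN1, ATP6V0D1 and ATG3. WIPI1, with the largest rise, has none in its window. Motif shares among all genes that rose or fell with TSA were not determined.

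In the wider lists of 91 lysosome and autophagy genes that are not members, 59 rose with TSA, 14 fell and 18 were not called, with a median of 0.41. Over all genes 20.6% were called higher and 21.4% lower. These lists too were chosen with earlier results of these data known. ATG2A, which carries lipid to the growing autophagosome, was at 649 and 631 with DMSO and at 3807 and 3576 with TSA, a difference of 2.50 ± 0.14. The receptor SQSTM1 (p62) rose by 1.23 ± 0.07, ATG101, a subunit of the ULK complex, by 1.51 ± 0.09, and ARSA, arylsulfatase A, by 1.75 ± 0.09.

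Roscovitine, the other drug, left most members near DMSO. Of the 41 members 2 rose, 1 fell and 38 were not called, and over all genes 0.551% were called higher and 2.21% lower. The members' median was -0.007, against 0.0006 over all genes. ULK2 fell from 514 and 517 to 296 and 335, a difference of -0.68 ± 0.09 (adjusted p = 0.0090). CTSF rose from 731 and 690 to 1017 and 1043, a difference of 0.53 ± 0.10 (adjusted p = 0.026). BECN1 rose from 2146 and 2083 to 2680 and 2598, a difference of 0.32 ± 0.06 (adjusted p = 0.035). The arrays of the groups did not overlap for these 3 genes, nor for 17 members in all (41.5%) and 46.6% of all genes. ULK2 and CTSF thus differed from DMSO in the same direction with both drugs, which share the DMSO arrays, while BECN1 rose with Roscovitine and fell with TSA.

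With both deviating arrays left out, ULK2 alone was called (-0.77, adjusted p = 0.028), while BECN1 stood at 0.34 (adjusted p = 0.10) and CTSF at 0.51 (adjusted p = 0.12). No member was called without DMSO replicate 1 or without DMSO replicate 2, and ULK2 alone without Roscovitine replicate 2. The BECN1 call was made in only 4 of 14 fits that left out 1 array. The members with the smallest p in groups without a call were MITF at -0.39 ± 0.10 (adjusted p = 0.088), ATG5 at -0.31 ± 0.08 (0.097), LAMP2 at -0.17 ± 0.06, NBR1 at -0.18 ± 0.08, ASAH1 at 0.18 ± 0.09 and ATP6V0D1 at 0.18 ± 0.10. Of the wider lists SMPD1, the acid sphingomyelinase, rose by 0.35 and RB1CC1, a scaffold of the ULK complex, fell by 0.39, and 89 of 91 were not called.

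Set directly against Roscovitine, TSA had 23 members higher, 5 lower and 13 not called, with a median of 0.33. Over all genes 21.3% were called higher and 21.6% lower. The TSA arrays are shared with the comparison above, so this count adds no independent samples. WIPI1 (3.48), NEU1 (2.97), OPTN (1.91), MCOLN1 (1.76), MITF (1.36) and MAP1LC3B (1.35) had the largest differences upward, and BECN1 (-0.76), GABARAP (-0.70), CTSZ (-0.58), CTSH (-0.50) and GAA (-0.33) were called lower. BECN1 was at 1586 and 1511 with TSA and at 2680 and 2598 with Roscovitine. ULK2, at 325 and 321 with TSA and 296 and 335 with Roscovitine, differed by 0.04 (95% interval -0.17 to 0.24) and its arrays overlapped. MITF was at 206 and 252 with Roscovitine, below both DMSO arrays, and at 574 and 649 with TSA.

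Without both deviating arrays, 25 members were higher and 4 lower with TSA than with Roscovitine, with WIPI1 at 3.45, NEU1 at 3.04, OPTN at 1.84 and BECN1 at -0.79, all called. GAA was then not called (-0.23, adjusted p = 0.14). Its call was also lost with a term shared by those arrays, in the fit of the drug arrays alone, without TSA replicate 2 and without Roscovitine replicate 2. Of the 28 calls, 20 were made in every alternative setting and every fit without 1 array.

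The heat map of all members and comparisons shows the calls concentrated in the columns with TSA. Of the 41 members, 8 were called in none of the 7 comparisons, 5 in 1, 24 in 2, 3 in 3 and 1 in 4.

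**Figure D3:**
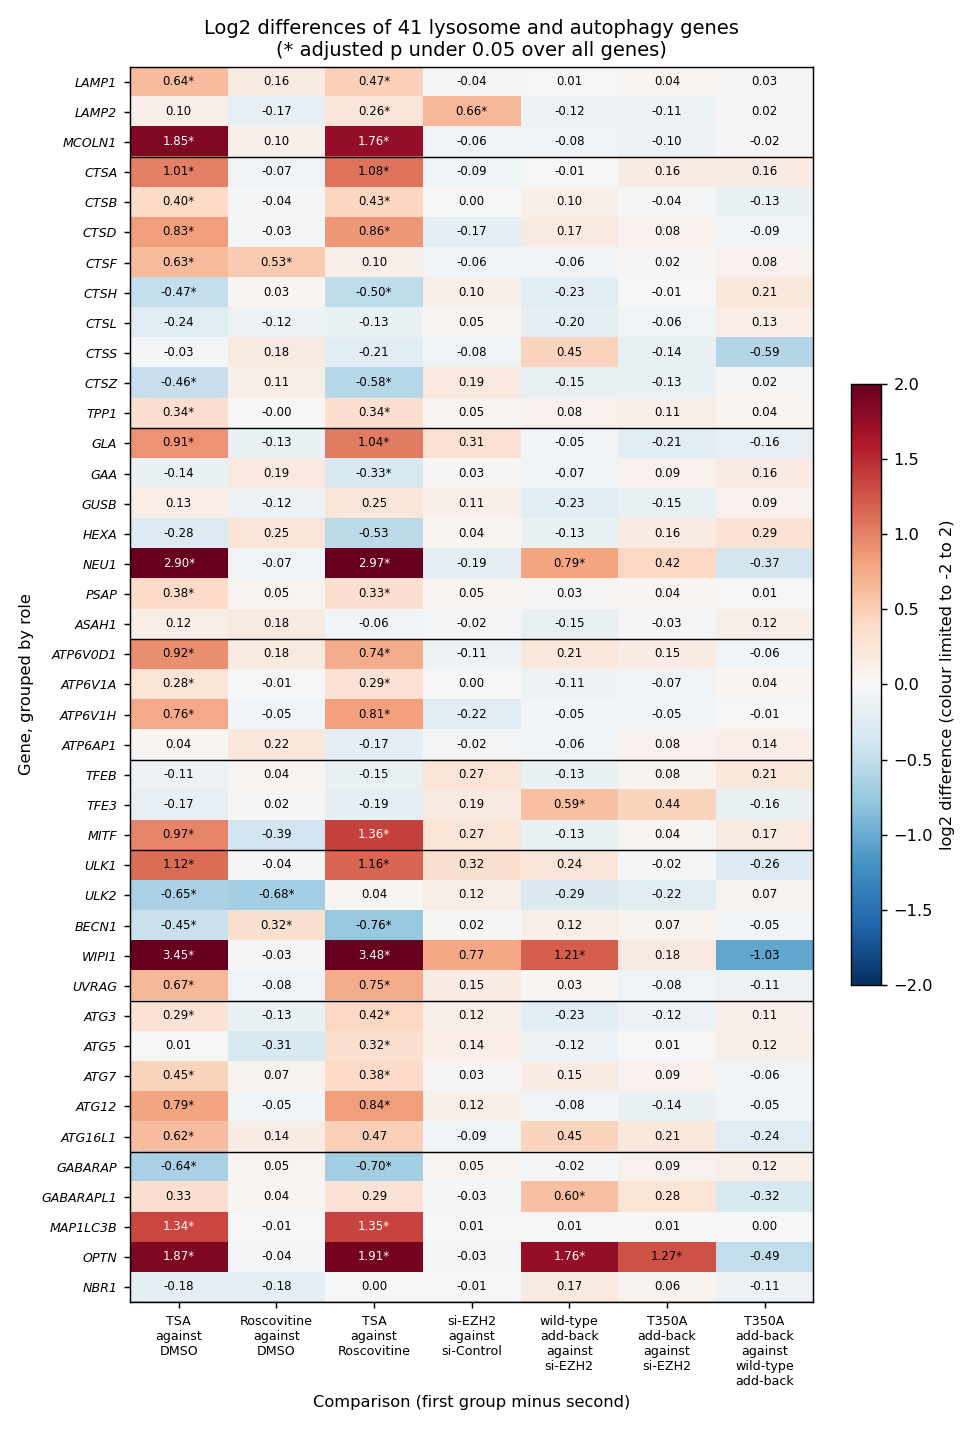
Log2 differences (first group minus second; colour limited to -2 to 2, values printed) of the 41 members, in rows by role with lines between roles, in the 7 comparisons in columns; a star marks an adjusted p under 0.05 over all genes. Stars fill most of the columns of TSA against DMSO and TSA against Roscovitine (28 each), and there are 3, 1, 5, 1 and 0 in the columns of Roscovitine, si-EZH2, the wild-type add-back, the T350A add-back and T350A against wild-type.

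With si-EZH2, LAMP2 was the only member called against si-Control, and 40 members were not called. Over all genes 0.683% were called higher and 0.126% lower, so that 1 call among 41 genes (2.44%) is a small count. The members' median was 0.03, against 0.04 over all genes. LAMP2 was at 2406 and 2504 with si-Control and at 3965 and 3823 with si-EZH2, a difference of 0.66 ± 0.06 (adjusted p = 0.0035). Its si-Control arrays were the lowest of all 14, since DMSO cells were at 3710 and 3783 and the add-backs between 3563 and 3656. The other 3 LAMP2 probe sets differed by -0.10, -0.09 and 0.18 between the same arrays, and the mean of all probe sets by 0.17 (adjusted p = 0.57). In the fit of the transfection arrays alone the call was lost (adjusted p = 0.12). LAMP2 is spliced to isoforms with different ends, and which isoform each probe set reads was not determined here.

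**Figure D4:**
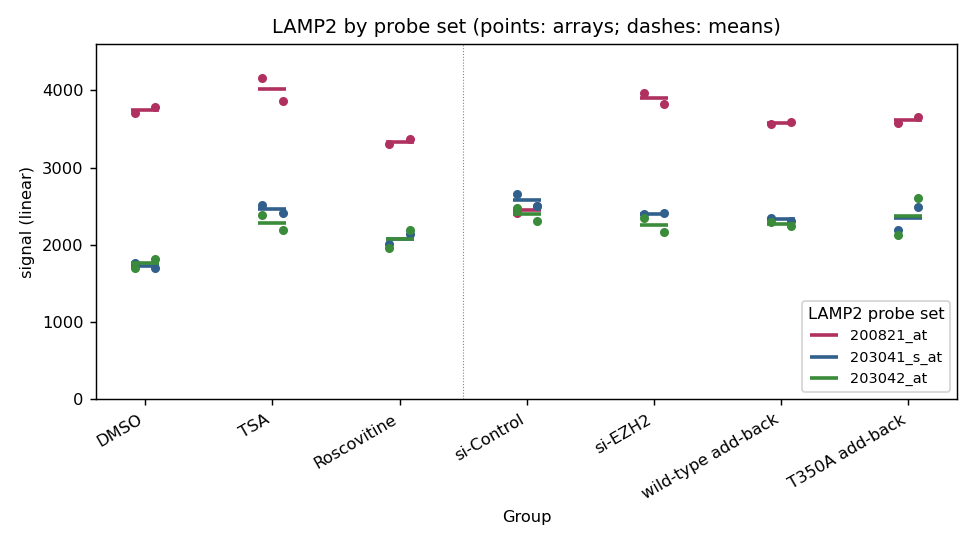
Signal (linear axis) of the 3 brighter LAMP2 probe sets on each array by group, with points for arrays, dashes for means and a dotted line between the drug and transfection experiments. The probe set in red, which stands for the gene, is at 2406 and 2504 with si-Control and at 3305 or more on every other array, while the other pair of probe sets shows no such drop with si-Control.

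WIPI1 was at 58.9 and 63.8 with si-Control and at 120 and 112 with si-EZH2, a difference of 0.77 ± 0.27 that was not called (adjusted p = 0.31). It was called (0.77 ± 0.14, adjusted p = 0.046) when either wild-type add-back array was left out of the shared estimate of the spread, and in none of the other 12 fits without 1 array. GLA at 0.31 ± 0.09 and ATP6V1H at -0.22 ± 0.06 (adjusted p = 0.18 each), MITF at 0.27 ± 0.10, CTSZ at 0.19 ± 0.07, ATG12 at 0.12 ± 0.07 and GABARAP at 0.05 ± 0.09 had the smallest p of their roles. Of the 91 genes of the wider lists, FYCO1, which links autophagosomes to motors, rose from 310.3 and 323 to 839 and 942, while GM2A fell by 0.54 and SLC17A5, a lysosomal exporter of sialic acid, fell by 0.39. DMSO cells had FYCO1 at 858 and 851, so for this gene too the si-Control arrays were the low ones.

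In the wild-type add-back 5 members rose against si-EZH2, none fell and 36 were not called. Over all genes 3.36% were called higher and 7.94% lower, and 12.2% of members rose. The members' median was -0.02, against -0.05 over all genes. OPTN was at 281 and 201 with si-EZH2 and at 1103 and 644 in the wild-type add-back, a difference of 1.76 ± 0.22 (adjusted p = 0.0029). With si-Control it was at 244 and 242. WIPI1 went from 120 and 112 to 416 and 199, a difference of 1.21 ± 0.27 (adjusted p = 0.022). NEU1 went from 889 and 864 to 1755 and 1325, a difference of 0.79 ± 0.12 (adjusted p = 0.0061). GABARAPL1 went from 827 and 744 to 1396 and 1030, a difference of 0.60 ± 0.15 (adjusted p = 0.033). TFE3 went from 1253 ± 52.6 to 1916 ± 358 (SD, n = 2), a difference of 0.59 ± 0.13 (adjusted p = 0.023). Its other probe sets differed by 0.48, 0.82 and -0.05. Other probe sets with a mean signal of at least 50 existed for 4 of the 5 called genes. Of those 6 probe sets, 5 differed in the same direction as the one that stood for the gene. In each of the 5 genes both add-back arrays lay above both si-EZH2 arrays, and replicate 1 of the add-back was the higher of the pair. The arrays of these groups did not overlap for 29 members (70.7%) and for 53.8% of all genes.

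**Figure D5:**
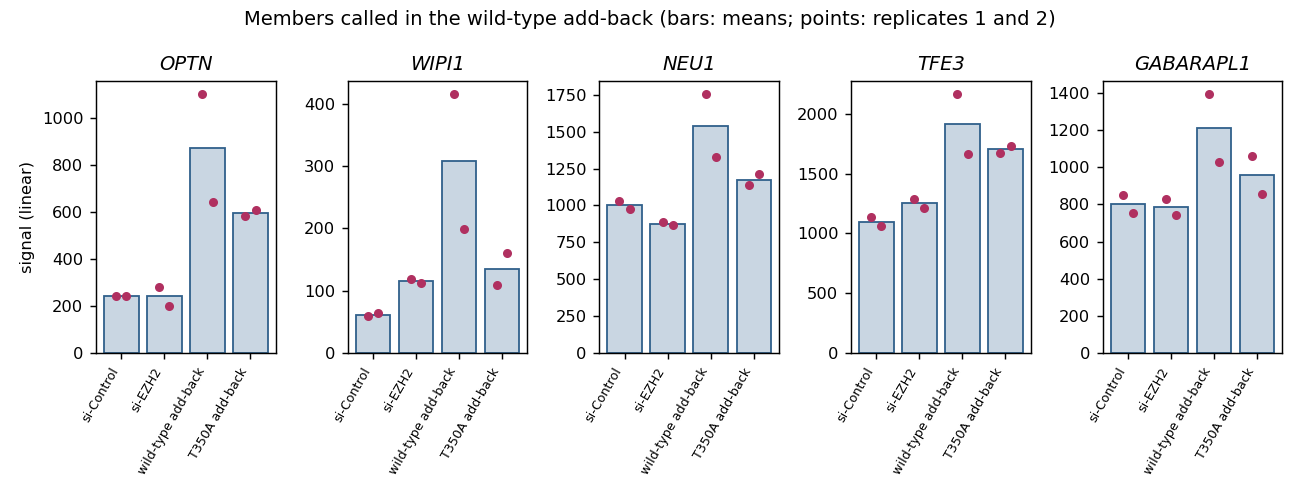
Signal (linear axis from 0) of the 5 members called in the wild-type add-back, in the 4 transfected groups, with bars for means and points for replicates 1 and 2. OPTN is at 1103 and 644 in the wild-type and 581 and 607 in the T350A add-back against 281 and 201 with si-EZH2, and for all 5 genes the wild-type arrays are spread further apart than those of si-EZH2.

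These calls dropped to 2 members without the first si-EZH2 array, to 1 without the second, to 2 without the first wild-type add-back array, and to 0 in the fit of the transfection arrays alone. When single arrays were left out, OPTN passed in 14 of 14 fits and GABARAPL1 in 5. The luminal marker sum was 25816 and 31881 in this add-back against 35874 and 36452 with si-EZH2, with the lower value in replicate 1, and its part in these differences was not tested. Of the roles without a call, CTSD at 0.17 ± 0.07, ATP6V0D1 at 0.21 ± 0.10, ATG3 at -0.23 ± 0.08 and LAMP2 at -0.12 ± 0.06 had the smallest p. MCOLN1 (-0.08) and MAP1LC3B (0.01), which rose with TSA, did not pass the test here. In the wider lists 6 genes rose, 2 fell and 83 were not called, beside 3.36% of all genes higher and 7.94% lower. SQSTM1 rose by 0.68, the mitophagy receptors BNIP3 and BNIP3L by 0.85 and 0.78, and DRAM1, a lysosomal protein encoded by a p53 target gene, by 1.36. DRAM1 was the gene of the wider lists that fell furthest with TSA, by 1.59.

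In the T350A add-back OPTN rose against si-EZH2 and the other 40 members were not called. Over all genes 0.637% were called higher and 0.167% lower. The members' median was 0.04, against -0.001 over all genes. The T350A and si-EZH2 arrays did not overlap for 19 members (46.3%) and for 38.5% of all genes. OPTN was at 281 and 201 with si-EZH2 and at 581 and 607 with T350A, a difference of 1.27 ± 0.22 (adjusted p = 0.038). The T350A arrays lay above both si-EZH2 arrays, yet the call was made in only 2 of 14 fits that left out 1 array, and not in the fit without both deviating arrays. Those 2 were the fits without a wild-type add-back array, in which the difference stayed at 1.27 and the shared estimate of the spread was smaller. The call was also lost without single DMSO, TSA, Roscovitine or si-Control arrays, which do not enter this difference. The second OPTN probe set was at 166 and 202 with si-EZH2, 676 and 636 with T350A and 1582 and 920 in the wild-type add-back. TFE3 differed by 0.44 ± 0.13 (adjusted p = 0.21), NEU1 by 0.42 ± 0.12 (adjusted p = 0.19), GABARAPL1 by 0.28 ± 0.15 and WIPI1 by 0.18 ± 0.27, none of them called. ULK2 at -0.22, ATG12 at -0.14, LAMP2 at -0.11, CTSA at 0.16 and ATP6V0D1 at 0.15 had the smallest p of their roles. SQSTM1, at 11730 and 11926 against 7698 and 7509, was the gene of the wider lists that rose (0.64), and 90 were not called.

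Whether the mutation changed these genes was tested by setting the T350A add-back against the wild-type add-back. No member was called by limma in either direction, 2 members (4.88%) had an unadjusted p under 0.05, against 3233 of the 19775 genes (16.3%), and over all genes 0.0455% were called higher and 0.157% lower. The members' median was 0.009, against 0.06 over all genes. WIPI1 was at 110 and 161 with T350A and at 416 and 199 with wild-type EZH2, a difference of -1.03 with a 95% interval of -1.64 to -0.42 (adjusted p = 0.17). NEU1 differed by -0.37 (interval -0.65 to -0.10, adjusted p = 0.21), OPTN by -0.49 (-0.99 to 0.01), GABARAPL1 by -0.32 (-0.66 to 0.01) and TFE3 by -0.16 (-0.46 to 0.15). The T350A and wild-type arrays did not overlap for WIPI1, NEU1 and OPTN, and overlapped for GABARAPL1 and TFE3. They did not overlap for 14 members in all (34.1%) and for 39.2% of all genes. Without both deviating arrays no member was called either, with WIPI1 at -1.28 (adjusted p = 0.21), NEU1 at -0.42 (0.33) and OPTN at -0.52 (0.50).

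Without wild-type add-back replicate 2, 4 members were called lower with T350A (CTSS, NEU1, OPTN and WIPI1), a fit in which replicate 1 alone stands for the group. Over all genes that fit called 606 higher (3.06%) and 402 lower (2.03%), against 9 and 31 with all arrays. CTSS was at 221 and 116 with wild-type EZH2 and at 112 and 91.7 with T350A, a difference of -0.59 ± 0.26 over all arrays by the probe set that stands for the gene. The other pair of CTSS probe sets, with means of 67.8 and 47.6, differed by -1.37 and -1.33, and by 1.18 and 2.12 between the wild-type add-back and si-EZH2. The intervals of ATG5 (0.12), LAMP1 (0.03), ATP6AP1 (0.14) and MITF (0.17), which had the smallest p of the remaining roles, include 0. An adjusted p over the threshold does not show that the add-backs act alike.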

How the data were processed

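RNA of 14 LNCaP samples was hybridised to 1 array each. Per the labels' protocols, the Qiagen RNeasy kit was used and the label was biotin. The deposited signals are linear intensity values for 54613 probe sets made by the authors, and how they summarized and scaled them is not stated in the labels or headers. A second deposited table repeats the same values for 7022 probe sets and was not used. By the platform annotation 41091 probe sets had 1 gene symbol, 1801 several and 11721 none; the probe set with the highest mean of log2(value + 16) stood for each of 19775 genes. Of the 41 members, 27 had several probe sets.

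The 7 group means were fitted over all arrays with limma 3.58.1 under R 4.3.3 (7 residual and 2.11 prior degrees of freedom). Adjustment of p-values was by Benjamini-Hochberg over the 19775 genes, and genes with an adjusted p under 0.05 were called. Errors are SE unless given as SD. The steps were run on simulated data with independent noise, of the same spread in every group for a gene. That run does not cover groups of unequal spread or arrays that deviate together. Tables used pandas 2.3.3 in Python 3.11.15 and figures matplotlib 3.10.9.

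The members and lists were chosen with earlier results of these data known. Called members were named (the 6 largest rises and falls where over 12), with the member of smallest p in roles without a call, and up to 4 called genes of the wider lists; members of every role are also named with TSA. The other settings tried were other pseudocounts, scalings, filters and probe set means, single experiments, a replicate block, an intensity trend, leaving out each array or both deviating arrays, and a term for those. Differences between replicates of a group, over the 9887 genes with the higher signal, did not show that replicate numbers pair samples: their correlations between groups ran from -0.33 to 0.77.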

Additional observations from a re-analysis of the deposited data

How the results depend on the processing

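Precision is limited by 2 arrays a group and by signals of unknown summarization. No called member changed direction in any setting. Leaving out 1 array at a time gave 25 to 29 called members for TSA against DMSO, 0 to 3 for Roscovitine, 23 to 29 for TSA against Roscovitine, 1 to 2 for si-EZH2 (LAMP2, and WIPI1 without either wild-type add-back array), 1 to 7 for the wild-type add-back, 0 to 1 for the T350A add-back and 0 to 4 for T350A against wild-type. For Roscovitine, quantile normalization, testing only genes above the median signal and a term shared by both deviating arrays each gave 5 members (2 higher, 3 lower), leaving out both deviating arrays gave 1 and the fit of the drug arrays alone 0. Over all 19775 genes, quantile normalization called 249 higher and 448 lower for Roscovitine, the shared term 98 and 447, and the drug arrays alone 0 and 6. Testing only the 9887 genes above the median signal called 275 and 889, a larger share, so the equal member counts are not alike. For si-EZH2 the mean of all probe sets and the fit of the transfection arrays alone gave 0. The wild-type add-back had 0 in the fit of the transfection arrays alone, which called 124 genes higher and 120 lower over all genes. For the T350A add-back a pseudocount of 1, quantile normalization, the fit of the transfection arrays alone, leaving out both deviating arrays and the shared term each gave 0. The fits of an experiment alone have fewer arrays behind the spread; the cause of the other changes was not tested. With the replicate block the counts were 28, 3, 28, 1, 5, 1 and 0 members in the order above, as without it, but with TSA against DMSO the block lost ATG16L1 (adjusted p = 0.056) and gained GABARAPL1 (0.034). It changed no other member's call.

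Scaling changed the split of all called genes. Counts higher and lower are given as deposited, then with arrays shifted to the same median, then after quantile normalization. TSA against DMSO had 4072 and 4240, then 3829 and 4615, then 4376 and 4310. TSA against Roscovitine had 4219 and 4274, then 3958 and 4681, then 4391 and 4493. Roscovitine had 109 and 437, then 139 and 397, then 249 and 448. For si-EZH2 they were 135 and 25, then 94 and 28, then 99 and 51. The wild-type add-back had 664 and 1570, then 799 and 1183, then 892 and 1379. The T350A add-back had 126 and 33, then 113 and 56, then 126 and 61. T350A against wild-type had 9 and 31, then 7 and 71, then 10 and 65.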
